A study of Mus musculus with 24 samples.

Results

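The transcripts described here encode 6 integrin chains of lymphocytes, Itgae, Itga4, Itgal, Itgb1, Itgb2 and Itgb7. They are 6 of the 8251 genes measured and were read by 11 of the 12422 probe sets tested. All probe sets annotated to one of these genes alone were taken, whatever their values, which gave 2 for Itgae, 3 for Itga4, 1 for Itgal, 2 for Itgb1, 1 for Itgb2 and 2 for Itgb7. A probe set is a group of short oligonucleotides on the array whose signals are summarised into 1 intensity. All levels below are log2 intensities, and all differences are between log2 intensities.

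Integrins are adhesion receptors made of 1 alpha and 1 beta chain. Itgae encodes alpha E, known as CD103, which pairs with beta 7 and binds E-cadherin on epithelia. It is carried by intraepithelial and tissue-resident T cells, some regulatory T cells and a class of dendritic cells, and transforming growth factor beta is known to induce it. Itga4 encodes alpha 4, which pairs with beta 1 to bind VCAM-1 on inflamed vessels and with beta 7 to bind MAdCAM-1 on mucosal vessels. Itgal encodes alpha L, which pairs with beta 2 as LFA-1 and binds the ICAM proteins. Lymphocytes use alpha 4 integrins and LFA-1 to leave the blood and enter inflamed tissue, the pancreatic islets among them.

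Mouse leukocytes were profiled in 24 arrays that fall into 10 groups, set by cell population and genetic background. One background is C57Bl/6 with the H2g7 haplotype of the major histocompatibility complex (B6g7), the other is NOD, the strain prone to autoimmune diabetes. Infiltrates and T cells came from mice with the BDC2.5 transgene, the rearranged T cell receptor genes of 1 islet-reactive CD4 T cell clone, so that most of their CD4 T cells share 1 specificity. The labels describe the islet infiltrate (insulitis) of these mice as aggressive on B6g7 and benign on NOD. Background and form of insulitis cannot be told apart.

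Total pancreatic infiltrate was sorted as viable CD45+ cells from B6g7 mice of 25, 28 and 24 days (3 arrays) and NOD mice of 25 days (3 arrays). Pancreatic T cells were sorted as viable CD45+ CD4+ cells with a high level of the BDC2.5 receptor, from B6g7 mice of 25 and 22 days (2 arrays) and NOD mice of 24, 24 and 25 days (3 arrays). T cells of the pancreatic lymph node were sorted in the same way, with CD45 not named, from B6g7 mice of 25 and 22 days (2 arrays) and NOD mice of 24, 22 and 25 days (3 arrays). NK cells were sorted from spleen by CD45 and Asialo GM1, a glycolipid that is not restricted to NK cells. They came from B6g7 mice without the transgene, of 6 and 3 weeks (2 arrays), and from NOD mice with no age in the labels (2 arrays). The labels give the BDC2.5 transgene for NOD NK array 2 and no transgene status for NOD NK array 1, so transgene and background are in part confounded in NK cells. Splenic leukocytes were viable CD45+ cells (2 arrays of each background, with no age or transgene in the labels). Where the labels name a treatment, it is none. Whether the arrays within a group stem from different mice is not in the labels. The p-values therefore reflect how far these arrays spread, and that spread may be technical.

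Promoter sequences are shown for every member that a reference promoter table held, which were the alpha 4 chain and both of its partners. The RefSeq promoter table (GRCm38.p6) was matched for 3 of the 6 genes, Itga4, Itgb1 and Itgb7. Each line gives the 250 bases before the annotated start, 5′ to 3′ on the strand of the gene. The positions are chr2:79255176-79255425 on the plus strand for Itga4, chr8:128685404-128685653 on the plus strand for Itgb1 and chr15:102231936-102232185 on the minus strand for Itgb7. Capitals mark matches to a GC box, spelled GGGCGG, to the core of a RUNX site, spelled TGTGGT, to an ETS site, spelled AGGAAG, or to a TATA box, spelled TATAAA, each searched on both strands.
Itga4: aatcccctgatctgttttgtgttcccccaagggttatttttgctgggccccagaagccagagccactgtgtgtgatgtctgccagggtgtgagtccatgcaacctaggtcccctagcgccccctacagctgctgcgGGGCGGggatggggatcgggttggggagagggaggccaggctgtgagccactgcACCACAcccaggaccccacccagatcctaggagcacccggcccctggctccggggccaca
Itgb1: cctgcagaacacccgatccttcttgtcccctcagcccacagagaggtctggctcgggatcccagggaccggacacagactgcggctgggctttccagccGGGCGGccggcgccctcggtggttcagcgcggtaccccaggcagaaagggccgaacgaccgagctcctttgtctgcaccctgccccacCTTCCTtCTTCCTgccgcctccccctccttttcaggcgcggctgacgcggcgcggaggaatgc
Itgb7: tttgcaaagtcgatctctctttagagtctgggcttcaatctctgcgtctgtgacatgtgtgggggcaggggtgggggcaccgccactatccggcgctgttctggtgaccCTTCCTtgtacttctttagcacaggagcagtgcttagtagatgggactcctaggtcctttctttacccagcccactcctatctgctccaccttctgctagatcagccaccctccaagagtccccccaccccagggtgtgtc
Both Itga4 and Itgb1 hold 1 GGGCGG, found in 32.7% of 32851 promoters of this length. Itga4 also holds 1 TGTGGT on the opposite strand (14% of promoters), while Itgb1 holds 2 AGGAAG and Itgb7 holds 1, all on the opposite strand (29.5% of promoters). No match overlapped another. TATAAA, held by 12.4% of promoters, is not among the letters of these windows. The share of G and C was 64% in the Itga4 window, 68% in that of Itgb1 and 56% in that of Itgb7, against a median of 52.4% over all promoters. These matches are descriptions of sequence, and binding was not measured.

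The summed CD4 T cell and NK cell markers set the sorted T cells and NK cells apart from each other, while some markers of other cells were present too. The 7 CD4 T cell markers (7 of 7 measured) summed to an intensity of 2030 to 2970 in the 10 T cell arrays, against 517 to 1250 in NK arrays, and the NK markers (7 of 10 measured) to 1240 to 2980 in NK arrays, against 183 to 277 in T cell arrays. In splenic leukocytes the CD4 T cell markers summed to 1290 to 1670 in B6g7 and 1950 to 2280 in NOD, so NOD spleen overlapped the T cell arrays. NK arrays also carried B cell markers (1020 to 1850) and the granulocyte transcript S100a8, at 9.04 and 11.29 in B6g7 and 5.03 and 12.58 in NOD. CD8 markers summed to 182 to 407 in B6g7 and 63.9 to 89.6 in NOD pancreatic T cells. In lymph node T cells they summed to 175 to 339 in B6g7 and 81.3 to 89 in NOD. Liver transcripts were present in 6 arrays, with albumin (Alb) above a log2 intensity of 8. These were B6g7 infiltrates 1 and 2, B6g7 pancreatic T cells 1, B6g7 lymph node T cells 1, NOD pancreatic T cells 1 and NOD lymph node T cells 1. In the other 18 arrays Alb read 4.01 to 4.90, taken here as the level a probe set can read with its transcript absent. The 4.90 came from NOD pancreatic T cells 2, and the next highest was 4.57. That array also had the highest level of Fabp1, another liver transcript, at 4.36, against 3.22 to 3.60 in the rest. Whether it held a trace of liver RNA was not tested, so the limit of 4.90 may be too high. RNA was amplified once for spleen and 2 times for all other populations, and the log2 signal of the 3′ end of Gapdh less that of its 5′ end, which grows as RNA gets shorter, averaged 0.33 and 0.22 in B6g7 and NOD spleen, against 2.96 to 5.13 in the other groups.

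Itgae was highest in the aggressive infiltrate. Probe set 93961_at read 6.02, 5.48 and 6.14 in B6g7 infiltrates, against 4.46, 4.22 and 4.38 in NOD infiltrates, with no overlap. The means were 5.88 ± 0.35 in B6g7 and 4.35 ± 0.12 in NOD (SD, n = 3 each), a difference of 1.53 (SE 0.24, 95% interval 1.03 to 2.03, limma, adjusted p = 0.00654). Because the NOD mean lies where absent transcripts also read, the point estimate of 2.89-fold higher may be too small. It is no bound against sampling error, which the interval gives. In bulk RNA, more cells that carry the transcript and more transcript per cell cannot be told apart.

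The other Itgae probe set, 161730_f_at, read lower and gave a smaller difference. Its values were 4.59, 4.14 and 5.10 in B6g7 infiltrates and 4.29, 3.81 and 4.36 in NOD infiltrates, which overlap. The difference was 0.46 (SE 0.27, 95% interval -0.11 to 1.02, adjusted p = 0.999). The suffix f marks probes that sequences of a family share, and the platform annotation pairs this probe set with no accession. It lay at or below 4.90 in 23 of 24 arrays, as did 93961_at in 20 of 24. Over the 24 arrays the pair had a Pearson r of 0.86, and 0.70 after group means were taken off. This r is a description over arrays that share groups and processing.

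**Figure D1:**
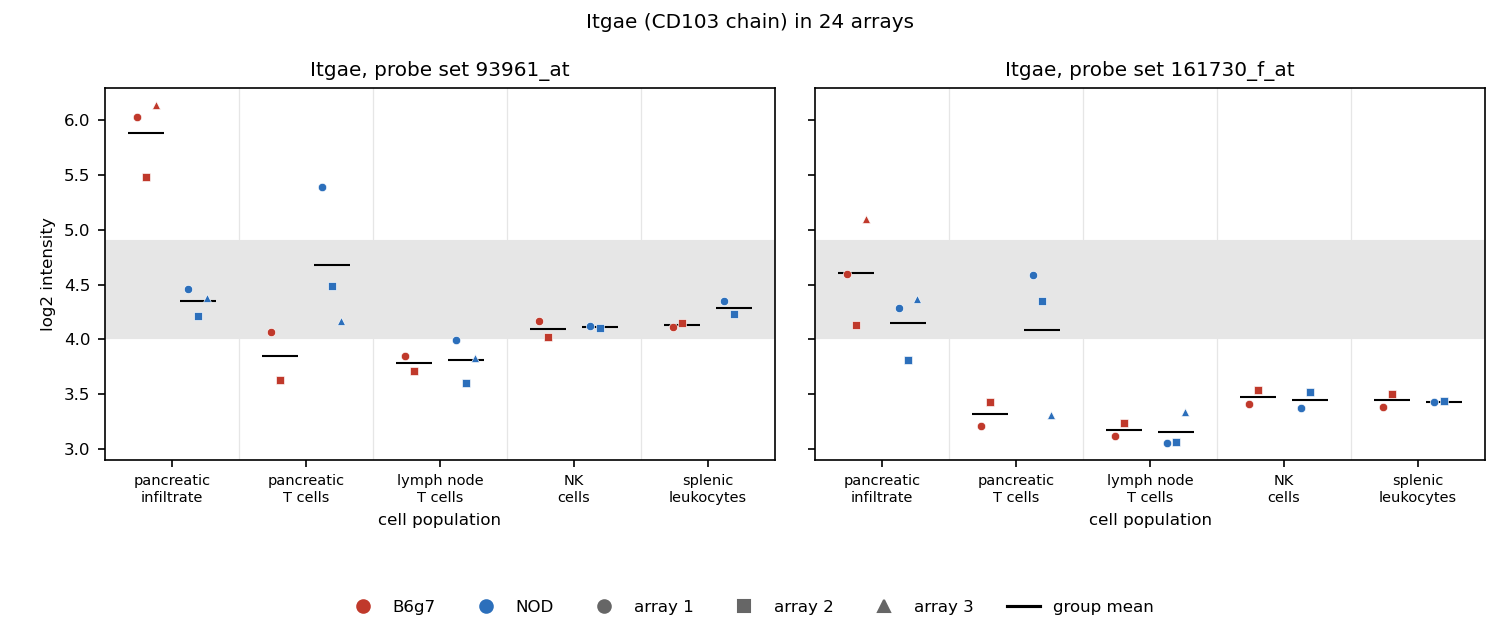
Log2 intensity of both Itgae probe sets (y axis) in 5 cell populations (x axis). Points are single arrays, with B6g7 in red left of NOD in blue and shapes for array numbers, black lines are group means, and the grey band is the 4.01 to 4.90 that Alb reads in arrays without liver transcripts. On 93961_at only the 3 B6g7 infiltrates and NOD pancreatic T cell array 1 stand above the band.

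Outside those infiltrates Itgae was near the level of absent transcripts. Apart from the B6g7 infiltrates and NOD pancreatic T cell array 1, 93961_at lay between 3.60 and 4.49 in the other 20 arrays. The order of the 10 means ran from 5.88 in B6g7 infiltrates through 4.68 in NOD pancreatic T cells, 4.35 in NOD infiltrates, 4.13 and 4.29 in B6g7 and NOD spleen, 4.09 and 4.11 in B6g7 and NOD NK cells and 3.85 in B6g7 pancreatic T cells to 3.78 and 3.81 in B6g7 and NOD lymph node T cells. Arrays of neighbours in this order overlapped in all but 2 of 9 steps, the step below the B6g7 infiltrates (1.20) and that between B6g7 and NOD spleen (0.16).

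In pancreatic CD4 T cells the sign was the opposite. Itgae 93961_at read 4.07 and 3.63 in B6g7, against 5.39, 4.49 and 4.16 in NOD, with no overlap, a difference of -0.83 (SE 0.27, adjusted p = 0.403). Probe set 161730_f_at read 3.21 and 3.43 in B6g7 and 4.58, 4.35 and 3.31 in NOD, a difference of -0.76 (SE 0.30, adjusted p = 0.608). The NOD arrays were far apart on both. The 2 high arrays, 1 and 2, also differed from array 3 in all probe sets, with a correlation to the NOD lymph node T cell mean of 0.862 and 0.879, against 0.987 for array 3. Their Gapdh 3′ to 5′ gaps were 3.91 and 4.87, against 2.78 for array 3, and array 1 carried liver transcripts (Alb 12.71). Nrp1, a receptor of some regulatory T cells and myeloid cells, read 8.17, 7.01 and 5.26 in NOD arrays 1, 2 and 3, and 6.03 and 5.26 in B6g7. Dendritic cell markers (8 of 10 measured) summed to 663 to 1070 in NOD and 449 to 500 in B6g7 pancreatic T cells. The median B6g7 minus NOD difference of these markers was -0.07. The part of these in the Itgae values was not tested. The size of the difference hung on single arrays. Without NOD array 1 it was -0.48 on 93961_at (adjusted p = 0.453) and -0.51 on 161730_f_at (adjusted p = 0.57), and without the arrays with liver transcripts it was -0.70 (adjusted p = 0.461) and -0.41 (adjusted p = 0.873). Without NOD array 3 it was -1.09 (adjusted p = 0.0527) and, past the threshold, -1.15 (adjusted p = 0.0326).

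The difference between backgrounds was tested between populations. For 93961_at the B6g7 minus NOD difference was 2.36 larger in infiltrate than in pancreatic T cells (SE 0.36, 95% interval 1.61 to 3.12, adjusted p = 0.0271), and it was 1 of 2 probe sets of all tested to pass, 0.0161%. The other was Trgv1, a gamma delta T cell receptor segment, at 2.87 (SE 0.42). The call was lost with quantile normalization (adjusted p = 0.0603), with only the compared groups in the fit (0.874) and without any 1 of 7 arrays (0.0612 to 0.14), which were B6g7 infiltrates 1 and 3, either B6g7 pancreatic T cell array and each of the 3 NOD infiltrates. For 161730_f_at the same difference was 1.22 (adjusted p = 1). Against splenic leukocytes the difference of 93961_at was 1.69 larger in infiltrate (SE 0.38, adjusted p = 0.405). No member passed there and 2 had an unadjusted p under 0.05, beside 0.0403% of all probe sets that passed. Without the arrays with liver transcripts it passed (adjusted p = 0.0237).

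In lymph node T cells, NK cells and spleen no difference of Itgae between backgrounds passed. Itgae 93961_at differed by -0.03 (95% interval -0.59 to 0.53) in lymph node T cells, -0.02 (-0.64 to 0.59) in NK cells and -0.16 (-0.77 to 0.46) in spleen. Probe set 161730_f_at differed by 0.02, 0.03 and 0.01. All of these levels lay where absent transcripts also read, so the arrays set no fold there.

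Within B6g7, Itgae was higher in the total infiltrate than in the sorted pancreatic T cells, which are separate samples with partly other ages and serial codes. The infiltrate mean of 5.88 stood 2.03 above the 3.85 of B6g7 pancreatic T cells on 93961_at (SE 0.27, 95% interval 1.47 to 2.60, limma, adjusted p = 0.000157). The point estimate of 4.09-fold may be too small, as the T cell mean lies where absent transcripts also read. On 161730_f_at the infiltrate stood 1.29 above (SE 0.30, adjusted p = 0.0239). Within NOD the same differences were -0.33 (adjusted p = 0.576, and 0.03 without NOD pancreatic T cell array 1) and 0.07 (adjusted p = 0.939). The B6g7 call on 93961_at held without any 1 array. That on 161730_f_at was lost in 7 of 11 alternatives, among them the fit of the compared groups alone (adjusted p = 0.128), the fit without the arrays with liver transcripts (0.14) and those without B6g7 infiltrate 1 or 3 or either B6g7 pancreatic T cell array (up to 0.269). Against B6g7 spleen the infiltrate was 1.75 higher on 93961_at (SE 0.27, adjusted p = 0.000397) and 1.17 higher on 161730_f_at (adjusted p = 0.0226), and in NOD the values were 0.06 (adjusted p = 0.936) and 0.72 (adjusted p = 0.157). The call on 161730_f_at against spleen was lost without B6g7 infiltrate 3 or either B6g7 spleen array (up to 0.183).

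The pancreas was also set against the draining node within the sorted T cells. In NOD, 93961_at read 5.39, 4.49 and 4.16 in pancreatic T cells and 3.99, 3.60 and 3.83 in lymph node T cells, with no overlap, a difference of 0.87 (SE 0.24, adjusted p = 0.114). Probe set 161730_f_at read 4.58, 4.35 and 3.31, against 3.06, 3.07 and 3.34 in the node, a difference of 0.93 (SE 0.27, adjusted p = 0.116). In B6g7 the differences were 0.07 and 0.14, both with an adjusted p of 1. Without NOD pancreatic T cell array 1 the NOD differences were 0.52 (adjusted p = 0.164) and 0.68 (adjusted p = 0.181), and without the arrays with liver transcripts 0.61 (adjusted p = 0.373) and 0.63 (adjusted p = 0.377). Without NOD pancreatic T cell array 3 both passed, at 1.13 (adjusted p = 0.00471) and 1.31 (adjusted p = 0.00195). The number of all probe sets that passed without array 3 was 1849, against 2 with all arrays.

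Markers of several other cell types also differed between the infiltrates, some higher and some lower in B6g7. The markers of gamma delta T cells (3 of 8 measured) summed to an intensity of 1010 to 1260 in B6g7 infiltrates and 360 to 388 in NOD infiltrates. Among them the receptor segment Trgv1 read 9.98, 9.73 and 9.69 in B6g7 and 7.52, 7.50 and 7.31 in NOD (adjusted p = 0.000628), Trgv4 averaged 5.36 in B6g7 and 4.12 in NOD (adjusted p = 0.0581), and Sox13, a transcription factor of some gamma delta T cells, averaged 7.44 and 7.48. NK markers (7 of 10 measured) summed to 654 to 849 in B6g7 and 296 to 436 in NOD. They were also higher in B6g7 without overlap in spleen (458 to 466 against 334 to 370) and in lymph node T cells (221 to 236 against 183 to 203). In pancreatic T cells and NK cells the backgrounds overlapped. CD8 markers (2 of 2 measured) summed to 207 to 233 in B6g7 and 95.9 to 163 in NOD, where Cd8a averaged 6.88 in B6g7 and 6.64 in NOD and Cd8b1 averaged 6.67 and 4.55. The mean of Cd8b1 was higher in B6g7 in the other 4 populations too. It was 7.77 against 4.80 in pancreatic T cells and 7.48 against 4.77 in lymph node T cells. In NK cells it was 7.75 against 5.29 (with overlap), and in spleen 8.04 against 5.79. Granulocyte markers (7 of 7 measured) ran the other way without overlap, at 551 to 606 in B6g7 and 707 to 1150 in NOD, and all 7 had a difference below 0 (median -0.48), of which none passed. Markers of macrophages and monocytes (8 of 8 measured) overlapped, at 1080 to 2020 in B6g7 and 1560 to 3310 in NOD. Markers of dendritic cells (8 of 10 measured) overlapped, at 854 to 1070 in B6g7 and 867 to 1210 in NOD, as did those of B cells (6 of 7 measured), at 2280 to 2890 and 2400 to 2710. No deposited intensity was 0, the lowest being 5.70. The part of these cells in the Itgae difference was not tested.

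The same difference was measured across other features of the arrays. Serial codes in the labels place B6g7 infiltrate 1 beside NOD infiltrates 1 and 2, and B6g7 infiltrate 3 beside NOD infiltrate 3. Within these runs the difference of 93961_at was 1.69 and 1.76, and that of 161730_f_at was 0.54 and 0.74. Single arrays moved the 161730_f_at difference of 0.46, which was 0.21 without B6g7 infiltrate 3, 0.28 without NOD infiltrate 2 and 0.69 without B6g7 infiltrate 2. It was 0.95 without the arrays with liver transcripts, and it passed in none of its 13 alternatives (adjusted p 0.716 to 1). For 93961_at the difference was 1.78 without the arrays with liver transcripts. That fit leaves B6g7 infiltrate 3 alone in its group and takes its spread from the other groups. The call on 93961_at held in all 13 alternatives that kept the probe set in the fit, with an adjusted p of up to 0.0491. The submitters' processing notes mention RMA, a way to summarise Affymetrix probes, for every B6g7 infiltrate and no NOD infiltrate. From those notes processing and group cannot be told apart. In pancreatic T cells and spleen the notes run the other way, with RMA named for every NOD array and no B6g7 array. They name it for no lymph node T cell array, so NOD pancreatic and lymph node T cells also differ in the notes. Within each background, infiltrates differ in them from pancreatic T cells and spleen. The differences between these groups, and the tests between populations that use them, cannot be told apart from processing either.

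The transcripts most like Itgae 93961_at over the 24 arrays were Trgv1 (Pearson r = 0.81), the annexin Anxa4 (0.75) and the granule protease Gzmb (0.74). For 161730_f_at they were Gzmb (0.82), Anxa4 (0.81) and Nrp1 (0.81). These r are descriptions over arrays that share groups, and the candidates were single-gene probe sets in the upper 60% by mean level.

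Itgb7 encodes the beta chain that CD103 needs, and its difference between infiltrates did not pass. Probe set 100906_at read 9.29, 8.66 and 8.19 in B6g7 infiltrates and 8.32, 8.63 and 8.01 in NOD infiltrates, a difference of 0.40 (SE 0.29, adjusted p = 0.999). The groups overlap, and r with Itgae 93961_at was 0.11 over 24 arrays. The family-type probe set 162193_f_at, which the platform annotation also pairs with no accession, so that what it reads is uncertain, read 4.93 to 5.23 in B6g7 and 4.74 to 5.23 in NOD infiltrates. The pair of Itgb7 probe sets had an r of 0.04, so they do not give 1 measure of the gene.

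Itgb7 100906_at was highest in spleen and lowest in NK cells. It read 9.51 and 9.27 in B6g7 spleen and 9.84 and 9.53 in NOD spleen, and 7.87 and 7.66 in B6g7 NK cells and 7.83 and 7.85 in NOD NK cells. No array of another group reached the spleen arrays, apart from B6g7 infiltrate 1 at 9.29, which passed the lowest of them. The NOD infiltrate fell below NOD spleen by 1.37 (SE 0.32, adjusted p = 0.0127), while the B6g7 difference was -0.67 (adjusted p = 0.26). The NOD call was lost without NOD infiltrate 3 or either NOD spleen array (adjusted p up to 0.175). Probe set 162193_f_at gave 0.12 for B6g7 and -0.24 for NOD. The r of 100906_at with the Gapdh 3′ to 5′ gap was -0.77 over 24 arrays and -0.45 without spleen, and the part of RNA length and of the single round of amplification in the spleen values was not tested. The most similar transcript was Phkg2, a phosphorylase kinase subunit (r = 0.92).

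Itga4 was read by 3 probe sets at different levels. Probe set 95292_at lay above 4.90 in 22 of 24 arrays, 102655_at in 1 and 102656_at in none. In infiltrates 95292_at read 5.74, 5.60 and 6.53 in B6g7 and 5.57, 5.14 and 5.76 in NOD, a difference of 0.47 (SE 0.30, adjusted p = 0.999). The other probe sets gave 0.16 and -0.36, so the 3 disagree in sign. Over all groups the mean of 95292_at was highest in B6g7 NK cells (6.16), B6g7 infiltrates (5.96) and NOD lymph node T cells (5.79) and lowest in B6g7 and NOD pancreatic T cells (4.97 and 4.99). Arrays of neighbours in the order overlapped in all but 1 of 9 steps.

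In NK cells Itga4 was higher than in lymph node T cells on 1 probe set in each background. In B6g7, 102655_at read 5.37 and 4.73 in NK cells and 3.80 and 3.94 in lymph node T cells. The difference was 1.18 (SE 0.22, 95% interval 0.71 to 1.65, adjusted p = 0.00436 by limma). The point estimate of 2.27-fold may be too small, as the lymph node values lie where absent transcripts also read. In NOD, 102656_at read 4.21 and 4.31 in NK cells and 3.30, 3.26 and 3.62 in lymph node T cells, a difference of 0.87 (SE 0.26, adjusted p = 0.0402), with both groups where absent transcripts also read. The B6g7 call was lost with only the compared groups (adjusted p = 0.198), without the arrays with liver transcripts (0.0564) and without B6g7 NK array 1 (0.0896). The NOD call was lost on a quantile scale (0.0648), with centring (0.0511) and without either NOD NK array or NOD lymph node T cell array 1 or 2 (up to 0.265). The brightest probe set, 95292_at, gave 1.08 in B6g7 (adjusted p = 0.149) and -0.17 in NOD (adjusted p = 0.813). Its closest transcript over the arrays was Cstf3, a cleavage stimulation factor subunit (r = 0.76).

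Itgb1 encodes the common beta 1 chain. Its probe set 100123_f_at had group means between 8.17 in B6g7 spleen and 11.20 in NOD NK cells, a range of 3.03, while 100124_r_at had a range of 1.66, less than the 2.10 of Itgae 93961_at and the 1.92 of Itgb7 100906_at. The suffix of 100123_f_at marks probes that sequences of a family share. This probe set read 11.08 and 11.04 in B6g7 NK cells and 11.24 and 11.16 in NOD NK cells, above every array of the other groups. At the other end were B6g7 spleen, at 8.25 and 8.09, and B6g7 pancreatic T cells, at 8.55 and 8.72. Of the 9 steps in the order, 5 had no overlap. Probe set 100124_r_at, whose suffix marks relaxed rules of probe choice, had an r of 0.77 with 100123_f_at (0.34 after group means were taken off). It did not peak in NK cells. Its highest mean was 8.13 in B6g7 infiltrates, with 7.74 and 8.06 in B6g7 and NOD NK cells.

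In sorted CD4 T cells Itgb1 was lower on B6g7 without overlap, though no test passed. In pancreatic T cells 100123_f_at read 8.55 and 8.72 in B6g7, against 10.50, 9.68 and 9.84 in NOD, a difference of -1.37 (SE 0.34, adjusted p = 0.198 by limma). In lymph node T cells it read 8.96 and 9.30 in B6g7, against 10.55, 10.03 and 10.49 in NOD, a difference of -1.23 (SE 0.34, adjusted p = 0.298). Probe set 100124_r_at gave -0.85 (adjusted p = 0.422) and -1.31 (adjusted p = 0.0918), again without overlap. In spleen the differences were -0.93 and -0.57, in NK cells -0.14 and -0.32, and in infiltrates 0.23 and 0.03. The arrays were also apart in spleen on both probe sets and in NK cells on 100123_f_at, so separation was not particular to T cells.

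Within B6g7 the infiltrate carried more Itgb1 than pancreatic T cells or spleen. Probe set 100123_f_at read 10.20, 9.45 and 10.92 in B6g7 infiltrates, above both B6g7 pancreatic T cell arrays, by 1.56 (SE 0.34, 2.95-fold, adjusted p = 0.0152), and above both spleen arrays by 2.02 (SE 0.34, 4.06-fold, adjusted p = 0.001). Probe set 100124_r_at was 1.66 higher than in T cells (adjusted p = 0.00182) and 1.54 higher than in spleen (adjusted p = 0.00194). In NOD the infiltrate differed from T cells by -0.04 and 0.77, neither passing, and from spleen by 0.86 (adjusted p = 0.138) and 0.93 (adjusted p = 0.0458). The difference between backgrounds was 1.60 larger in infiltrate than in pancreatic T cells on 100123_f_at and did not pass (adjusted p = 0.951). Against B6g7 T cells, the call on 100123_f_at was lost with only the compared groups in the fit (adjusted p = 0.173) and without B6g7 infiltrate 1 or 3 or either T cell array (up to 0.211). That on 100124_r_at was lost with only the compared groups (0.076), without the arrays with liver transcripts (0.113) and without T cell array 1. Both B6g7 calls against spleen held without any 1 array. The NOD call against spleen was lost with centring (0.0516), with a trended prior (0.0557) and without NOD infiltrate 1 or 2 or either spleen array (up to 0.298). For NK cells minus lymph node T cells, 100124_r_at gave 1.05 in B6g7 (adjusted p = 0.0758) and 0.06 in NOD (adjusted p = 0.927), neither passing by limma. On 100123_f_at B6g7 NK cells were 1.93 higher than lymph node T cells (SE 0.37, adjusted p = 0.00543). The NOD difference on 100123_f_at was 0.85 (adjusted p = 0.132). The B6g7 call was lost with only the compared groups (0.098) and without B6g7 lymph node T cell array 1 (0.0628) or NK array 2 (0.0539). The most similar transcript was Strap, a kinase-associated protein (r = 0.87), and r with the Gapdh gap was 0.63, or 0.34 without spleen.

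Itga4 and Itgb1 moved together over the arrays, with an r of 0.70 between 95292_at and 100123_f_at (0.64 after group means were taken off). Itgb1 100123_f_at and Itgb7 100906_at, the alternative partners of alpha 4, had an r of -0.69 over all arrays and -0.20 after group means were taken off.

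Itgal, the alpha chain of LFA-1, was lower on B6g7 in every population by a small amount that passed nowhere. In infiltrates it read 5.74, 6.08 and 5.69 in B6g7 and 6.17, 6.08 and 6.25 in NOD, a difference of -0.33 (SE 0.13, adjusted p = 0.879 by limma). The differences were -0.23 in pancreatic T cells, -0.37 in lymph node T cells, -0.25 in NK cells and -0.28 in spleen, with arrays apart in the last 3. Spleen was the highest population, at 6.40 and 6.35 in B6g7 and 6.71 and 6.61 in NOD. The infiltrate lay below spleen in B6g7 by 0.54 (log2 difference -0.54, SE 0.14, adjusted p = 0.0292) and in NOD by 0.49 (-0.49, adjusted p = 0.041). The B6g7 call was lost in 7 of 12 alternatives, among them a trended prior (0.0537), only the compared groups (0.0953) and the fits without B6g7 infiltrate 1 or 3 or either spleen array (up to 0.212). The NOD call was lost in 10 of 11, among them every fit without 1 of the 5 NOD arrays (up to 0.311). Its r with the Gapdh gap was -0.75, or -0.30 without spleen, and the part of RNA length in this was not tested. The most similar transcript was Bmyc (r = 0.85).

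Itgb2, the partner of alpha L, spanned 0.85 between the highest and lowest group means, with overlap in all 9 steps of the order. It read 8.64, 7.82 and 8.42 in B6g7 infiltrates and 8.83, 8.33 and 8.56 in NOD infiltrates, a difference of -0.28 (SE 0.22, adjusted p = 0.999). The highest mean was that of NOD lymph node T cells, at 9.07, 8.79 and 8.88, against 8.26 and 8.20 in B6g7 lymph node T cells, a difference of -0.69 (SE 0.24, adjusted p = 0.533). Those NOD arrays also stood above NOD pancreatic T cells, at 8.18, 7.83 and 8.45, a pancreas minus node difference of -0.76 (SE 0.22, adjusted p = 0.114). Neither passed. The most similar transcript was the cyclin Ccng2 (r = 0.78).

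**Figure D2:**
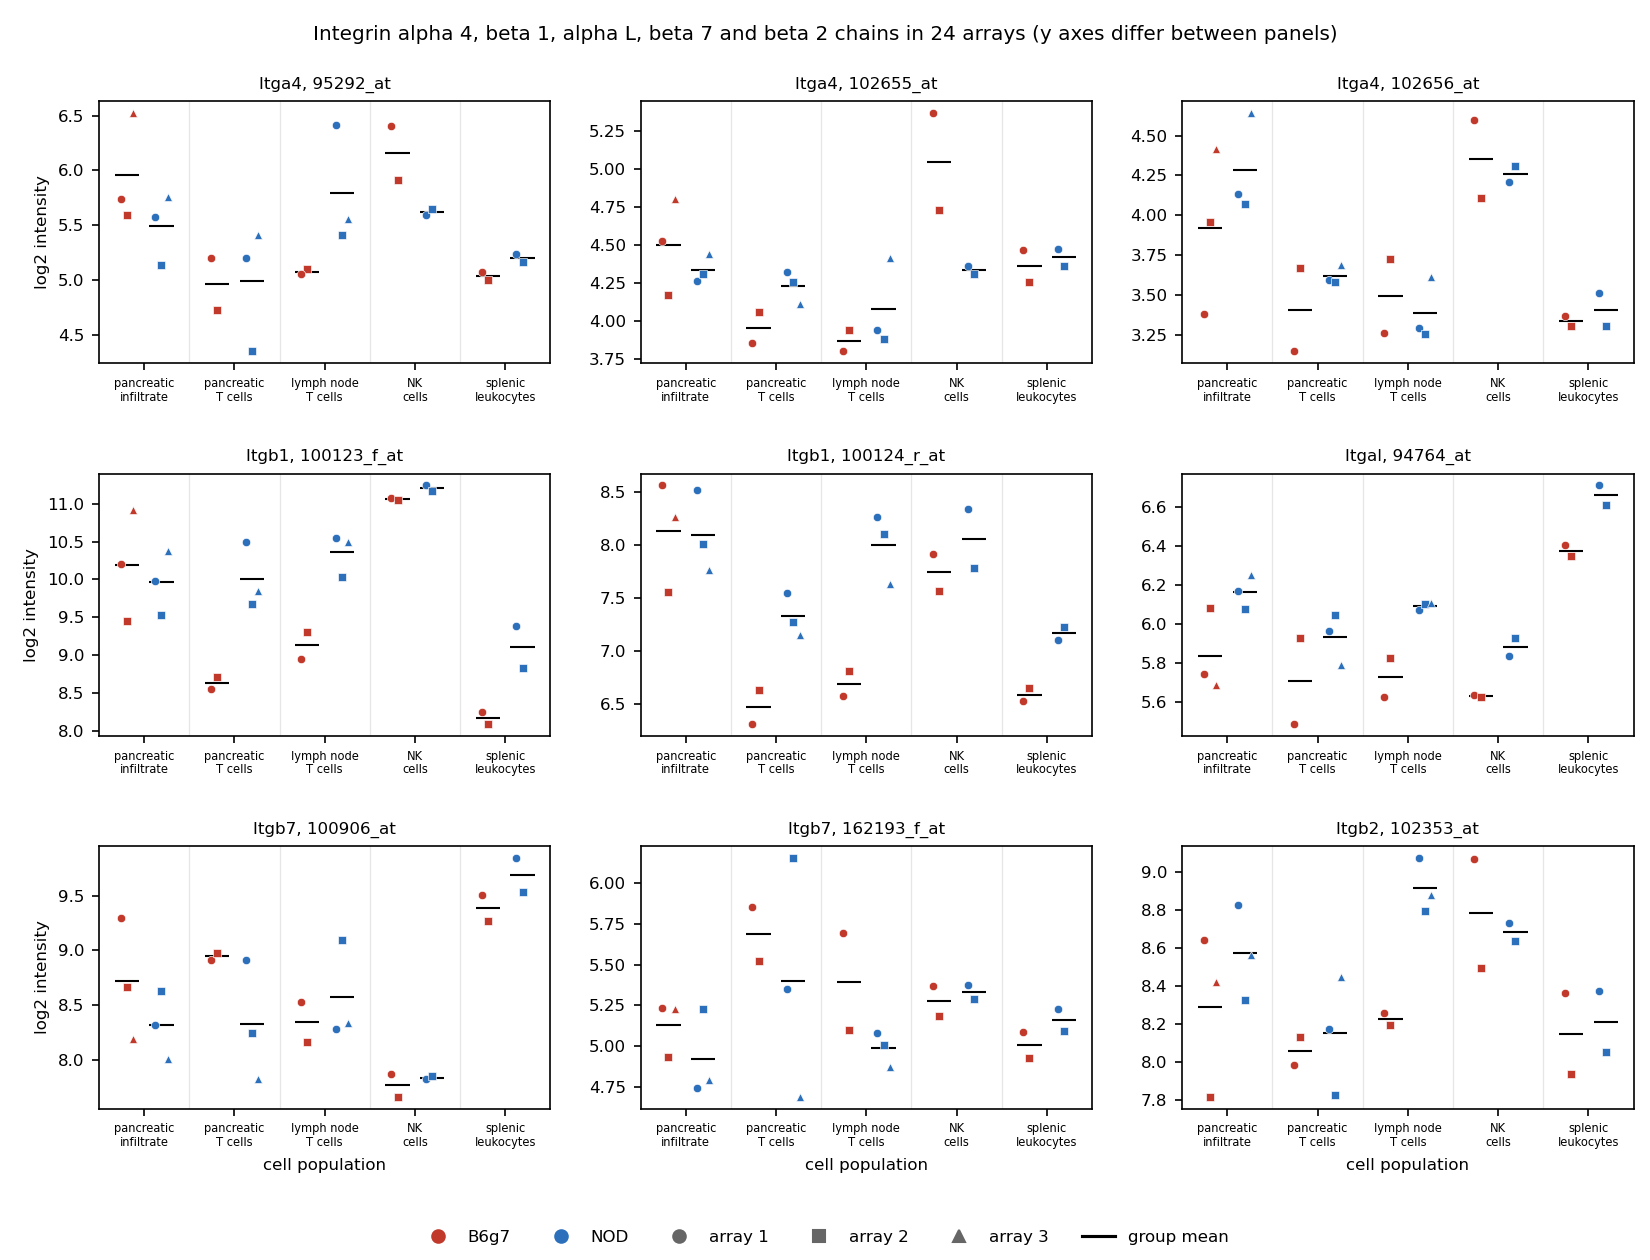
Log2 intensity of the 9 probe sets of Itga4, Itgb1, Itgal, Itgb7 and Itgb2 (y axes, each with its own range) in 5 cell populations (x axis). Points are single arrays, with B6g7 in red left of NOD in blue, and black lines are group means. Itgb1 100123_f_at peaks in NK cells, at 11.04 to 11.24, while the highest mean of 100124_r_at is that of B6g7 infiltrates. Itgal and Itgb7 100906_at peak in spleen.

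Counted over the 11 probe sets, differences between backgrounds were few. In infiltrates 1 passed, Itgae 93961_at, where 0.274% of all probe sets passed, 0.217% as higher, and 1 was without overlap, where 10.6% of all were. The median difference of the 11 was 0.21, against -0.02 over all probe sets. In pancreatic T cells 0 passed by limma (0.145% of all), 4 had an unadjusted p under 0.05, and 4 were without overlap, all lower in B6g7 (10.5% of all, 4.36% lower). In lymph node T cells 0 passed (0.129% of all), 5 had an unadjusted p under 0.05, and 6 were without overlap, 5 of them lower (22.3% of all, 9.46% lower). In NK cells 0 passed (0.0483% of all), 1 had an unadjusted p under 0.05, and 4 were without overlap (30.7% of all). In spleen 0 passed (0.0725% of all), 1 had an unadjusted p under 0.05, and 7 were without overlap, all lower in B6g7 (26% of all, 10.6% lower).

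**Figure D3:**
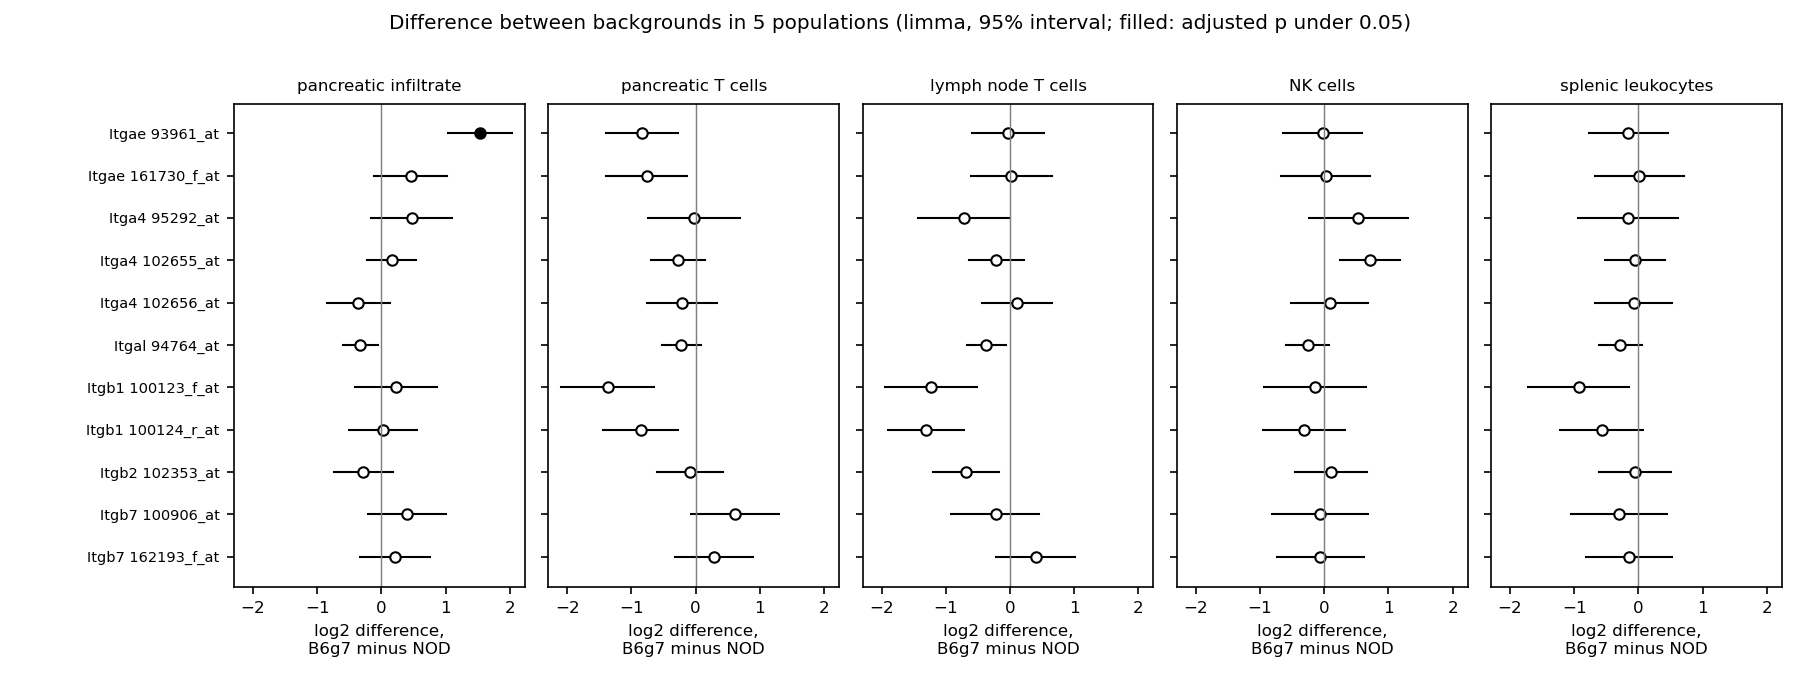
B6g7 minus NOD difference in log2 intensity (x axis) of each of the 11 probe sets (y axis) in 5 populations (panels), with 95% intervals of the limma fit. The filled point marks an adjusted p under 0.05. Itgae 93961_at in infiltrate, at 1.53, is the one filled point, and the Itgb1 points of both T cell populations lie between -1.37 and -0.85.

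Between populations more of them passed. In B6g7, infiltrate against pancreatic T cells gave 4 of 11, all higher, where 2.71% of all probe sets passed, 2.33% as higher, and infiltrate against spleen gave 5 of 11, of which Itgal was lower (7.58% of all). In NOD, infiltrate against pancreatic T cells gave 0 of 11 by limma, with 2 at an unadjusted p under 0.05 (3.23% of all), and infiltrate against spleen gave 4 of 11 (9.12% of all). These were Itga4 102656_at (0.87, adjusted p = 0.044, lost on a quantile scale and without NOD infiltrate 1 or 3 or either spleen array) and Itgb1 100124_r_at higher, and Itgal and Itgb7 100906_at lower. NK cells against lymph node T cells, of which all lymph node arrays and 1 NOD NK array are labelled with the transgene, gave 2 of 11 in B6g7 (3.52% of all) and 1 in NOD (10.1% of all). Pancreatic against lymph node T cells gave 0 of 11 in both backgrounds, with 0 at an unadjusted p under 0.05 in B6g7 (0% of all passed) and 5 in NOD (0.0161% of all passed).

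**Figure D4:**
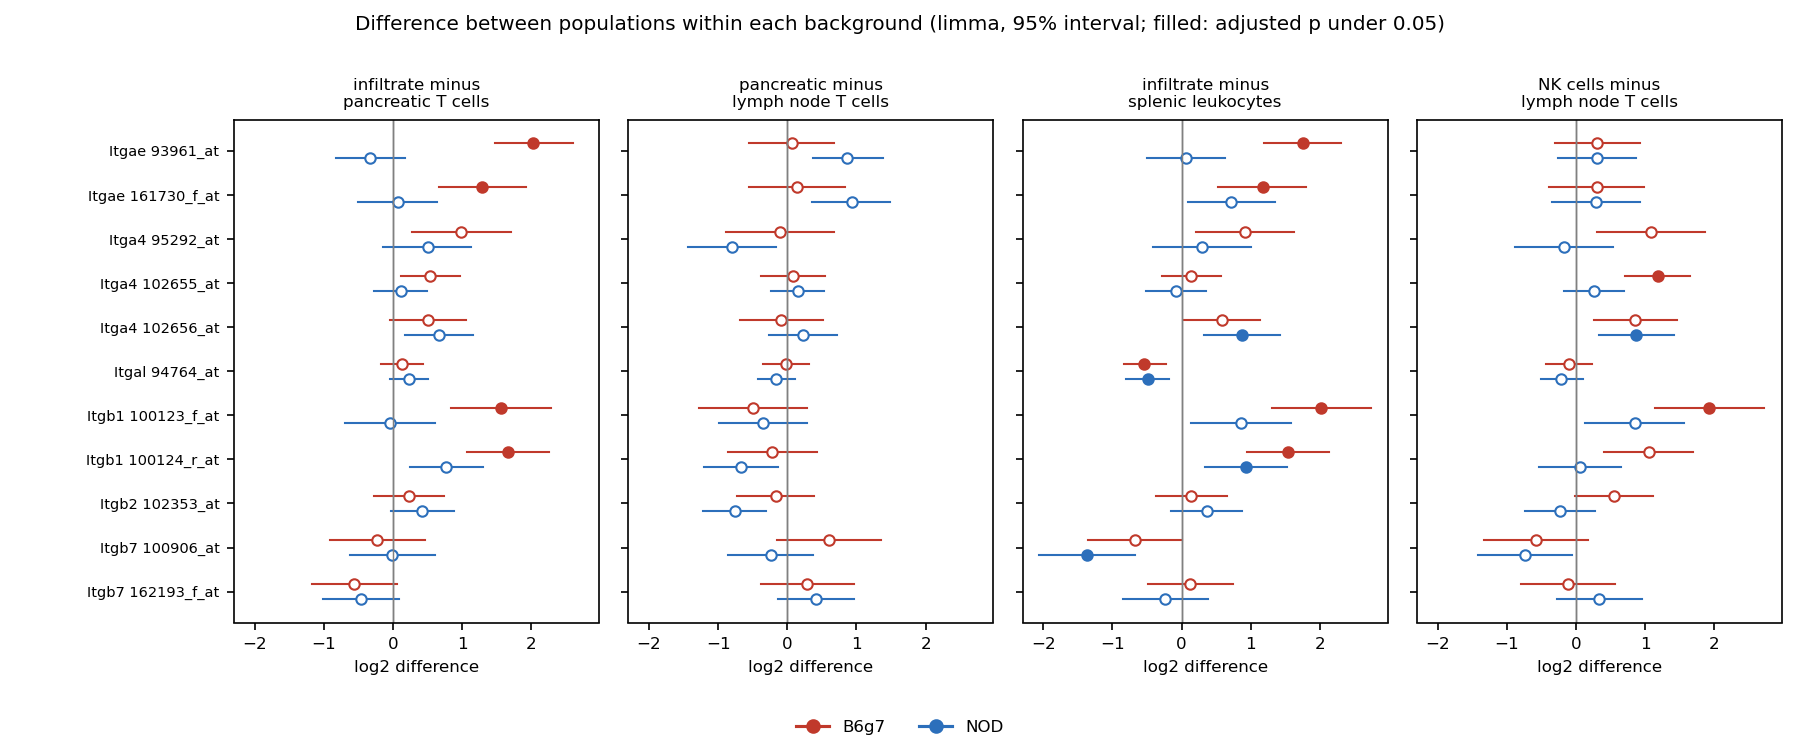
Difference in log2 intensity between populations (x axis) of each probe set (y axis), with 95% intervals of the limma fit, B6g7 in red above NOD in blue. Filled points mark an adjusted p under 0.05. In the first panel the B6g7 infiltrate stands above B6g7 pancreatic T cells on both Itgae and both Itgb1 probe sets, by 1.29 to 2.03, and no NOD point is filled.

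Other genes of the pathway were taken as lists. Between the infiltrates, 0 of 9 other integrin alpha chains measured, 0 of 3 other beta chains, 0 of 11 integrin ligands, 0 of 21 adaptors of integrin activation and 0 of 13 genes of transforming growth factor beta signalling and Itgae control passed, by limma over all probe sets. Over all 8251 genes, 19 passed as higher and 4 as lower. The median differences of these lists lay between -0.15 and -0.01, against -0.01 over all genes. Runx1, a transcription factor of the last list, averaged 4.78 in B6g7 and 4.06 in NOD (difference 0.72, adjusted p = 0.206), and in pancreatic T cells it passed as higher, at 5.36 in B6g7 and 3.95 in NOD (1.41, SE 0.21, adjusted p = 0.00556), the 1 gene of these lists to pass there. That call was lost with only the compared groups in the fit, and the NOD mean lies where absent transcripts also read. In the infiltrates Cdh1, which encodes E-cadherin, averaged 5.95 and 6.09 (adjusted p = 0.999). Of 12 other homing receptors 1 passed as higher, the chemokine receptor Ccr2, at 7.14 in B6g7 and 5.89 in NOD (difference 1.24, SE 0.24, adjusted p = 0.0321).

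The same lists were counted where the infiltrate was set against pancreatic T cells. In B6g7, 1 of 9 other alpha chains passed as higher, Itgax, the CD11c chain of dendritic and other myeloid cells (1.55, SE 0.36, adjusted p = 0.0239). Of the adaptors 2 of 21 passed as higher, Skap2, which links integrins to the cytoskeleton (2.60, SE 0.34, adjusted p = 0.000158), and vinculin, Vcl (2.38, SE 0.43, adjusted p = 0.00314). Of the homing receptors 2 of 12 passed as higher, Ccr2 (2.68, adjusted p = 6.87e-06) and Ccr6 (1.62, adjusted p = 0.00787). In NOD, Skap2 (1.89, adjusted p = 0.00107), the ligand Icam2 (1.73, adjusted p = 0.0178) and Ccr6 (2.32, adjusted p = 7.69e-05) passed as higher, 1 each of 21 adaptors, 11 ligands and 12 homing receptors. Over all genes, 214 passed as higher and 25 as lower in B6g7, and 266 and 27 in NOD. B cell and macrophage markers passed in the same direction, with 5 of 6 and 5 of 8 in B6g7 and 5 of 6 and 6 of 8 in NOD, and their part in these gene differences was not tested. Between pancreatic and lymph node T cells 0 genes of any of these lists passed in either background, by limma.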

How the data were processed

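RNA of sorted cells was measured on Affymetrix MG-U74Av2 arrays. The values are linear probe set intensities in 1 table, as the authors deposited them. Per the submitters' processing notes, 11 of 24 arrays went through RMA. For the other 13 no method is stated in the sources used here. Array medians ran from 35.1 to 39.1. The number of arrays limits the precision.

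Of 12488 probe sets, 66 controls were left out. Names came from the platform annotation, updated through Entrez identifiers to the RefSeq table of GRCm38.p6, with 10833 probe sets to 1 gene, 396 to several and 1193 to none. Log2 was taken without a pseudocount. Group means of all 24 arrays were fitted with limma 3.58.1 in R 4.3.3 (14 residual degrees of freedom), with 15 comparisons. P-values are two-sided and adjusted by Benjamini-Hochberg over 12422 probe sets within a comparison, and an adjusted p under 0.05 passes. Simulated data were used to check the fit.

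Every probe set of the 6 genes is given, and for lists the probe set with the highest mean stands for a gene. From each list up to 4 passing genes with the largest differences are named in the comparisons between infiltrates, between T cell sites and between infiltrate and pancreatic T cells. For likeness, 3 transcripts are named for each Itgae probe set and 1 for the brightest probe set of each other gene. Runx1, Cdh1, Nrp1 and single markers were named after their values were seen. The genes and lists were chosen with earlier results of these data known. Folds are said to be possibly too small where the lower group mean is at or under the highest Alb level of arrays without liver transcripts (4.90). This rule was chosen after seeing the data, and its limit rests on 1 probe set and 1 array, NOD pancreatic T cells 2. Such folds are point estimates, and sampling error can place the true fold below them.

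Other settings tried were a quantile scale, a median scale, a filter on the dimmest 40% of probe sets, a trended and robust prior, a fit of the compared groups alone, blocks for replicate numbers or for runs of serial codes, and fits without 1 array each. Replicate numbers were checked by correlating deviations from group means. The NOD pairs of pancreatic with lymph node T cells gave 0.34, 0.36 and 0.29 and were treated as pairs in the replicate block. The ages of number 2 differ, however (24 and 22 days). Arrays of equal number from unlike backgrounds also reached 0.65, in pancreatic T cells 1 and in NK cells. The B6g7 pairs of pancreatic with lymph node T cells gave 0.79. The check therefore cannot tell paired arrays from arrays that share other features.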

Additional observations from a re-analysis of the deposited data

Results flagged for a closer look

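The B6g7 minus NOD difference of Itgae 93961_at was 2.36 larger in infiltrate than in pancreatic T cells, by the limma test of the difference (adjusted p = 0.0271, from 0.000114 to 0.874 over the alternatives). In 4 other cases every array of B6g7 lay on one side of NOD in 1 population and on the other side in another. These differences were not tested. Such separation was common: of all probe sets, 30.7% had the backgrounds apart in NK cells, 26% in spleen and 22.3% in node T cells. Among pancreatic T cells the share was 10.5%. How many of all probe sets change sides in this way was not counted, so the 4 cases cannot be set against chance. For Itga4 95292_at the B6g7 minus NOD difference in lymph node T cells less that in NK cells was -1.25, and that in NK cells less that in spleen was 0.69. For Itga4 102655_at the value for pancreatic T cells less NK cells was -0.99. For Itgb7 162193_f_at it was 0.56 higher in lymph node T cells than in spleen. For Itgb2 all NK arrays lay above lymph node T cells in B6g7 and below them in NOD. This difference of 0.78 was not tested either, and the share of all probe sets with such a change was not counted.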

How the results depend on the processing

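With groups of 2 or 3 arrays, counts of member probe sets that pass moved with single arrays, and Itgae lies near the level of absent transcripts. Of 361 alternatives to 30 single results, 273 kept direction and side of the threshold, 74 lost the call, 7 gained one and 7 turned sign. The turned values were all of differences that had not passed. For Itgae 93961_at, pancreatic minus lymph node T cells of B6g7 gave -0.15 (without pancreatic array 1) to 0.29 on leaving out 1 array, with 0 without lymph node array 2, and -0.08 without the arrays with liver transcripts, and infiltrate minus pancreatic T cells of NOD gave -0.59 to 0.03 (without pancreatic T cell array 1) and 0.03 without the arrays with liver transcripts. For 161730_f_at infiltrate minus pancreatic T cells of NOD gave -0.31 (without pancreatic T cell array 3) to 0.32, with -0.04 without NOD infiltrate 3. Leaving out the dimmest 40% of probe sets removes both Itgae probe sets and 2 of Itga4, and left 0 members passing between infiltrates, 3 for infiltrate against spleen and 2 against T cells in B6g7, 2 against spleen in NOD, 1 and 0 for NK against lymph node T cells in B6g7 and NOD, and 0 for the difference between infiltrate and T cells. With only the compared groups, infiltrate against T cells of B6g7 gave 1, NK against lymph node T cells gave 0 in B6g7 and 2 in NOD, and the difference between infiltrate and T cells gave 0. With the replicate block, which uses shared numbers alone except for NOD pancreatic and lymph node T cells, pancreatic T cells of B6g7 against NOD gave 2 (Itgae, NOD array 3 dropped), infiltrate against spleen gave 3 in B6g7 and 1 in NOD, infiltrate against T cells of B6g7 gave 2, and the difference between infiltrate and T cells gave 2. Single calls lost with the replicate block were 161730_f_at and Itgal for infiltrate against spleen and 161730_f_at and Itgb1 100123_f_at for infiltrate against T cells in B6g7, and Itga4 102656_at, Itgal and Itgb7 100906_at for infiltrate against spleen in NOD. The replicate block moved no other count, that of NOD pancreatic against lymph node T cells (0) included. Quantile normalization gave 2 for infiltrate against spleen in NOD and 0 for the difference between infiltrate and T cells, a trended prior gave 2 for infiltrate against spleen in NOD, and centring gave 0 for NK against lymph node T cells in NOD. The planned removal of infiltrate arrays with liver transcripts above all T cell arrays found 0 arrays and was not run. Without all 6 arrays with liver transcripts, chosen after seeing the data, infiltrate against T cells of B6g7 gave 2, NK against lymph node T cells of B6g7 gave 1 and the difference between infiltrate and spleen gave 1. Leaving out 1 array gave 0 to 1 for pancreatic T cells of B6g7 against NOD, 3 to 5 and 0 to 2 for infiltrate against spleen in B6g7 and NOD, 1 to 4 and 0 to 1 for infiltrate against T cells, 1 to 2 and 0 to 1 for NK against lymph node T cells, 0 to 5 for NOD pancreatic against lymph node T cells and 0 to 1 for the difference between infiltrate and T cells. Apart from the construction of the filter, the cause was not tested. Over all probe sets, the 34 passing between infiltrates became 6 without arrays with liver transcripts and 15 with serial runs as a block, the 18 of pancreatic T cells became 307 with the replicate block, 0 with only the compared groups and 0 without arrays with liver transcripts, the 16 of lymph node T cells became 2 with only the compared groups, 9 with the block and 0 without arrays with liver transcripts, and the 337 of B6g7 infiltrate against T cells became 176 and 84 with only the compared groups and without arrays with liver transcripts.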
